A study of Mus musculus with 24 samples.

Results

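MHC class II molecules display peptides from the endosomal pathway to CD4+ T cells, and 10 genes of this pathway were followed here in sorted mouse bone marrow progenitors. They are the classical chain genes H2-Aa, H2-Ab1 and H2-Eb1, the invariant chain gene Cd74, the peptide loading genes H2-DMa, H2-DMb1, H2-DMb2, H2-Oa and H2-Ob, and the transactivator gene Ciita. The genes were taken by symbol, and all 10 of them were found among the 24421 genes counted in each of 24 poly(A) RNA-seq libraries.

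The libraries were made from 2 sorted populations of bone marrow cells, with 3 mice for each of 4 genotypes. Common lymphoid progenitors (CLPs) had been sorted as Lin-IL-7R+, and progenitors of the B lineage as B220+IgM-IL-7R+. The control genotype, labelled PLCgamma1+/+PLCgamma2+/+, is written here as Plcg1+/+Plcg2+/+. By the labels of the others, Plcg1-/-Plcg2+/+ cells lacked PLCgamma1, Plcg1+/+Plcg2-/- lacked PLCgamma2, and cells labelled PLCgamma1-/-PLCgamma2-/-, here Plcg1-/-Plcg2-/-, lacked both. PLCgamma1 and PLCgamma2 are phospholipases that act downstream of antigen and cytokine receptors, and the comparisons ask what the loss of either or both does to transcripts in early lymphoid cells. Per the methods of the study, the donors carried a YFP reporter and a Cre driven by the interferon-inducible Mx promoter, with a floxed Plcg1 for the Plcg1-/- genotypes and a germline deletion of Plcg2 for the Plcg2-/- ones, on a mixed 129xC57BL/6 background. At 6 to 12 weeks of age donors of all genotypes received 3 injections of poly(I:C), an inducer of interferon, and their bone marrow was taken 3 weeks later. It was transplanted into lethally irradiated wild-type CD45.1+ recipients, from which CD45.2+ cells were sorted 6 to 8 weeks later. Both populations came from the same 12 mice, as the mouse numbers in the titles show, and how many donors stood behind the 3 mice of a genotype is not given in the sources used here.

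Class II molecules are pairs of an alpha and a beta chain. A classical pair forms in the endoplasmic reticulum around the invariant chain, of which a remnant stays in the peptide groove until H2-DM removes it. H2-O, which is mostly restricted to B cells, thymic epithelium and some dendritic cells, holds H2-DM back. Transcription of the classical genes and of Cd74 needs Ciita, a co-activator that does not bind DNA itself but docks on the RFX, CREB and NF-Y proteins sitting on the X and Y boxes of class II promoters. Ciita is itself transcribed from several alternative promoters used by different cell types, which gene-level counts do not separate.

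Promoter sequences of RefSeq (GRCm38.p6, the assembly of mm10) were at hand for 7 of the 10 genes. They are shown for H2-Aa and H2-Eb1, which were low in Plcg1-/-Plcg2-/- cells, and for H2-DMb2 and H2-Ob, of which only H2-DMb2 was low. The capitals mark matches, on either strand, to AACNNNTGA (the core of the X box), TGACGTCA (a CRE, the site of CREB) and ATTGG (the Y box, the reverse of CCAAT). The windows start 140 bases before the RefSeq start site and end before the first exon base of GENCODE, at chr17:34287824-34287963 (minus strand), chr17:34305727-34305866, chr17:34145109-34145235 and chr17:34238765-34238902 in this order.
H2-Aa: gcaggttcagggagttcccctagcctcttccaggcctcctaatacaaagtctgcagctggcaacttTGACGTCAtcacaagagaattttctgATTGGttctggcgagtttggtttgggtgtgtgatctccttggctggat
H2-Eb1: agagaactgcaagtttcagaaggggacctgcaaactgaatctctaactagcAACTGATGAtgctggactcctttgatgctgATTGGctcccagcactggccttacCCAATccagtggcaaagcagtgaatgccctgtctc
H2-DMb2: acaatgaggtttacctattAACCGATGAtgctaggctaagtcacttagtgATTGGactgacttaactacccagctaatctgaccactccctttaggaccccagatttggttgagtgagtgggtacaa
H2-Ob: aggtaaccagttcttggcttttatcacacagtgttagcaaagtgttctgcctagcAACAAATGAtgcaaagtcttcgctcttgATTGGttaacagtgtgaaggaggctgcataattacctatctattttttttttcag

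The X box core occurs in 11.9% of the 32851 promoters of 300 bases in the RefSeq table, the CRE in 1.79% and the Y box in 37.4%. No 2 of the printed matches overlap. An X box core followed by a Y box after 10 to 30 bases occurs in 88 promoters (0.268%), of which 4 belong to the genes followed here, H2-Eb1, H2-DMb2, H2-DMb1 and H2-Ob. In H2-Eb1 the X box core begins at position -89 from the start site and in H2-Ob at -85. H2-Aa has the CRE at -74 and the Y box at -48, and H2-Oa has a Y box at -43 without a match to the X box core. The letters were chosen after the sequences had been seen, and a match is a description of the sequence. As given below, the paired boxes were found both in genes that were lower in Plcg1-/-Plcg2-/- cells and in genes that were not.

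In the GENCODE vM21 annotation of mm10, 8 of the 10 genes lie in the class II region of chromosome 17, from H2-Oa (34092340 to 34095234) to H2-Eb1 (34305867 to 34316674). Between them are H2-DMa (34119541 to 34139101), H2-DMb2 (34143307 to 34151555), H2-DMb1 (34153072 to 34160230), H2-Ob (34238903 to 34254414), H2-Ab1 (34257689 to 34269419) and H2-Aa, on the minus strand (34282744 to 34287823). Cd74 is on chromosome 18 (60803848 to 60812652) and Ciita on chromosome 16 (10480059 to 10528418). Exons of H2-DMa, H2-Oa and Ciita overlap those of Brd2, BC051537 and Dexi on the other strand, the library kit named does not mark strand, and so reads in the overlaps cannot be assigned with certainty. H2-DMb1 and H2-DMb2 are close copies of each other. Of the 50-base stretches in H2-DMb1 transcripts 22.7% also occur in those of H2-DMb2, and of those in H2-DMb2 21.2% occur in H2-DMb1, so that the split of counts between both copies is uncertain.

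The libraries held 1479582 to 33219995 reads on genes, and 3 reads, the floor used for a level, correspond to 0.0903 to 2.03 CPM, that is, counts scaled to library size. The members were well above that floor, with from 18 reads for H2-DMb2 in its lowest library to 21828 for Cd74 in its highest. Of all reads, those on no gene were 17.9% to 45.2% in CLPs and 59.9% to 87.3% in B cell progenitors. Plcg2 was lower in both Plcg2-/- genotypes, at 72.1 to 137 CPM against 182 to 281 CPM in the other libraries. Whole-gene counts of Plcg1 did not separate the genotypes (56.03 to 185 CPM in the libraries labelled Plcg1-/-). The paper reported by western blot that YFP+ bone marrow cells of Plcg1-/-Plcg2-/- recipients lacked PLCgamma1 protein. The markers it lists for the cells sorted for RNA-seq do not include YFP. All 12 libraries labelled Plcg1-/- had 1293 to 2313 CPM of Xist and at most 49.7 CPM summed over 4 Y-linked genes, against at most 742 CPM and at least 234 CPM in the 12 others. Donor sex and Plcg1 genotype therefore cannot be told apart in 3 of the comparisons below, Plcg1-/-Plcg2-/- against Plcg1+/+Plcg2+/+, Plcg1-/-Plcg2-/- against Plcg1+/+Plcg2-/- and Plcg1-/-Plcg2+/+ against Plcg1+/+Plcg2+/+. Plcg1-/-Plcg2-/- against Plcg1-/-Plcg2+/+ and Plcg1+/+Plcg2-/- against Plcg1+/+Plcg2+/+ are each within one class.

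The sorted populations were checked against their markers. All 11 genes of the B lineage progenitor list and all 7 of the CLP list had reads in all 24 libraries, and their summed levels overlapped between populations, at 3016 to 7937 CPM in CLPs and 2939 to 10791 CPM in B cell progenitors for the first list. Markers of other cells were present too. The 5 neutrophil genes found summed to 1080 to 6564 CPM, the 7 plasmacytoid dendritic genes to 385 to 918 CPM, the 7 conventional dendritic genes to 41.9 to 839 CPM and the 9 macrophage and monocyte genes to 75.5 to 382 CPM. Flt3 is in both the conventional dendritic and the CLP list. In bulk RNA, fewer class II-bearing cells and less class II RNA per cell cannot be told apart.

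In Plcg1+/+Plcg2+/+ cells the genes of the pathway were spread over a wide range of levels per length, given as CPM per kb of exon. Cd74, whose product chaperones the classical pairs, was highest in both populations, with 274 ± 132 in CLPs and 235 ± 68.0 in B cell progenitors (SD, n = 3 each). H2-Ab1, the beta chain of I-A, followed with 80.3 ± 36.5 in CLPs and 79.2 ± 15.1 in B cell progenitors. H2-Eb1, the beta chain of I-E, and H2-Aa, the alpha chain of I-A, came next in both populations, and neighbours among these 3 overlapped. In CLPs the order went on with H2-Ob, H2-DMa, H2-DMb1, H2-Oa and H2-DMb2, each within the spread of the next. Ciita was lowest per length, at 3.66 ± 1.48 in CLPs and 4.43 ± 0.153 in B cell progenitors (SD, n = 3 each), with all its libraries below all those of H2-DMb2.

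The order differed in Plcg1-/-Plcg2-/- cells, where H2-Ob and H2-DMa ranked above H2-Eb1 and H2-Aa in both populations. H2-Ob, the beta chain of H2-O, was at 29.4 ± 9.004 CPM per kb and H2-Aa at 17.03 ± 9.93 in B cell progenitors (SD, n = 3 each), against 26.97 ± 3.07 and 38.2 ± 8.50 in Plcg1+/+Plcg2+/+ ones. All libraries of H2-Ob lay below all those of H2-Aa in Plcg1+/+Plcg2+/+ B cell progenitors, whereas in Plcg1-/-Plcg2-/- ones H2-Ob, H2-DMa and H2-Eb1 each overlapped the next.

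**Figure D1:**
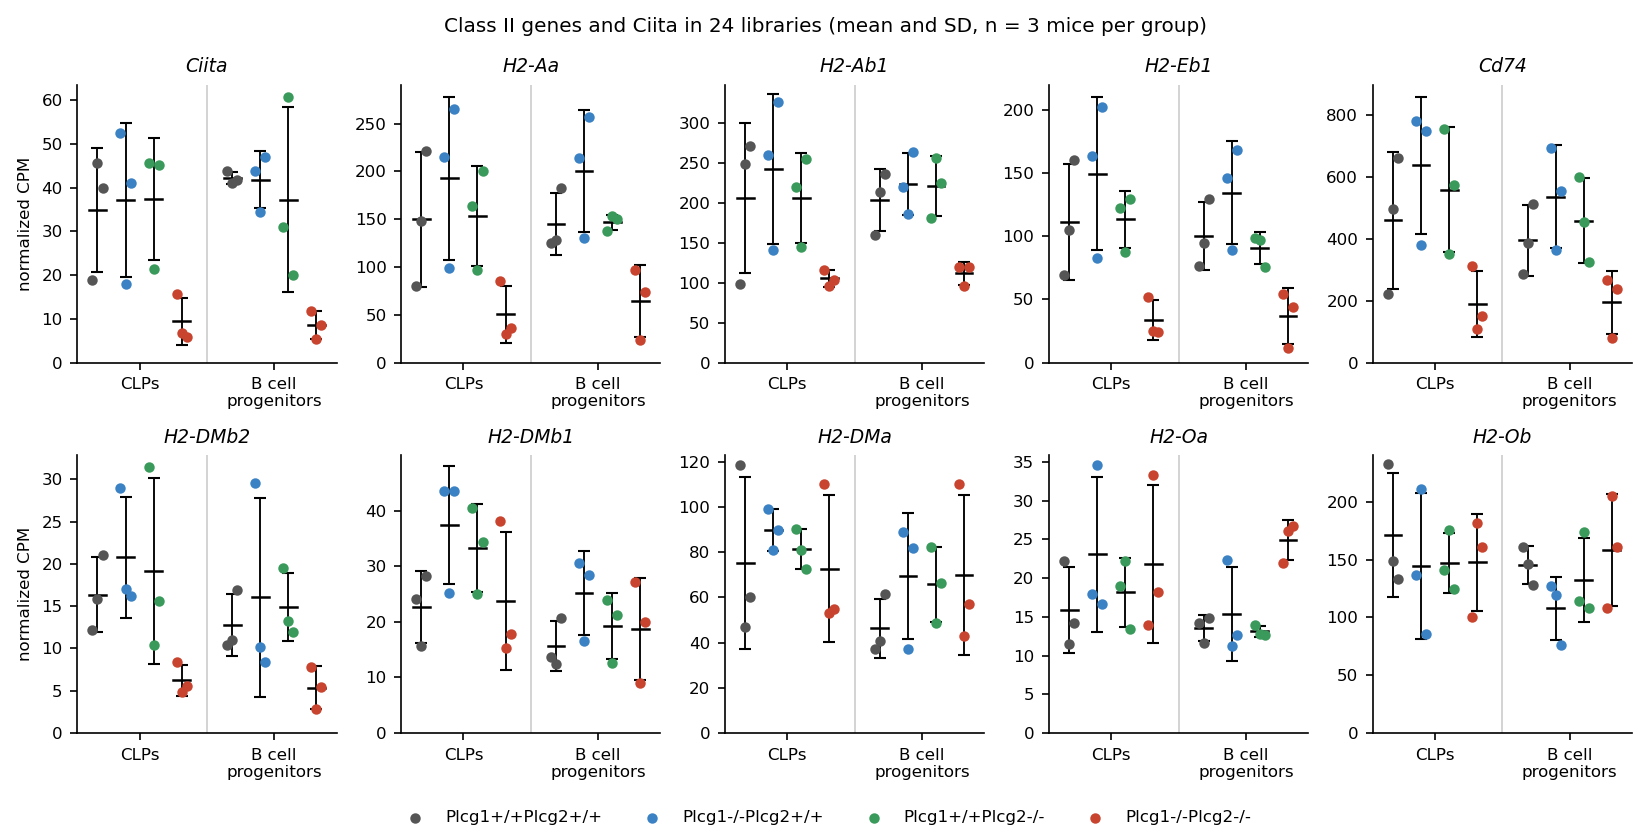
Level of each of the 10 genes in all 24 libraries, in normalized CPM from 0, with 1 point per mouse, colored by genotype, and bars for the mean and SD of 3 mice. Ciita lies between 5.32 and 15.7 CPM in the 6 Plcg1-/-Plcg2-/- libraries and between 18.02 and 60.8 CPM in the 18 others, while H2-DMa, H2-DMb1 and H2-Ob show no such separation.

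Ciita fell in Plcg1-/-Plcg2-/- B cell progenitors. Its level was 43.9, 41.1 and 41.8 normalized CPM in the Plcg1+/+Plcg2+/+ mice and 11.8, 5.32 and 8.603 CPM in the Plcg1-/-Plcg2-/- mice. The 3 control values lay close together and the highest Plcg1-/-Plcg2-/- value was far below them. The difference was 5.22-fold, a log2 fold change of -2.39 (SE 0.37, 95% interval -3.19 to -1.58, adjusted p = 0.00926 by the quasi-likelihood test of edgeR). A gene counted as called where its adjusted p did not exceed 0.05 and its log2 fold change was 0.5 or more in size. Ciita was the 1 member of 10 called in this comparison, in which 0.893% of the 15001 genes tested were called.

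The same gene was the 1 member called when Plcg1-/-Plcg2-/- B cell progenitors were set against either partly deficient genotype. It had 43.9, 34.5 and 47.1 CPM in Plcg1-/-Plcg2+/+ mice, so that all 3 values were above the highest Plcg1-/-Plcg2-/- value. The log2 fold change was -2.39 (SE 0.37, adjusted p = 0.0457 from edgeR's test), in a comparison with 0.213% of genes called. Plcg1+/+Plcg2-/- mice had 31.1, 60.8 and 19.97 CPM, the widest spread among these groups. Here the log2 fold change was -2.29 (SE 0.37, adjusted p = 0.0405 from edgeR's test), with 0.153% of genes called. The 3 comparisons share the Plcg1-/-Plcg2-/- libraries and are not independent of each other. The call against Plcg1+/+Plcg2+/+ was lost without the Plcg1-/-Plcg2-/- mouse 2 (adjusted p = 0.0571) or 3 (adjusted p = 0.0630), with log2 fold changes of -2.08 and -2.43, and a further member was called without Plcg1-/-Plcg2+/+ mouse 1 (H2-Oa, higher, adjusted p = 0.0460) or Plcg1+/+Plcg2-/- mouse 2 (H2-Ab1, lower, adjusted p = 0.0497). The call against Plcg1-/-Plcg2+/+ was lost without any one Plcg1+/+Plcg2+/+ or Plcg1-/-Plcg2+/+ library and without Plcg1-/-Plcg2-/- mouse 2 or 3 (adjusted p of 0.0673 to 0.205). The call against Plcg1+/+Plcg2-/- was lost without any one Plcg1+/+Plcg2+/+ library, Plcg1-/-Plcg2+/+ mouse 1 or 3, Plcg1+/+Plcg2-/- mouse 2 or Plcg1-/-Plcg2-/- mouse 2 or 3 (adjusted p of 0.0613 to 0.235).

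In CLPs the Ciita levels were 18.9, 45.8 and 39.9 CPM in Plcg1+/+Plcg2+/+ mice and 15.7, 6.78 and 5.77 CPM in Plcg1-/-Plcg2-/- mice. The groups did not overlap, but the lowest control came close to the highest Plcg1-/-Plcg2-/- value. The log2 fold change was -1.88 (SE 0.52, 95% interval -3.02 to -0.74) with an unadjusted p of 0.00387 and an adjusted p of 0.338 from edgeR's test, so the gene was not called. No member was called in CLPs by edgeR, with 0.0921% of the 15209 genes tested called. With an unadjusted p up to 0.05 there were 6 members, all lower, against 3.84% of all genes tested, and DESeq2 called 2 members, Ciita and H2-Eb1 (log2 fold changes of -1.89 and -1.72, adjusted p = 0.0232 and 0.00697). The share of all genes that DESeq2 called is not given here or below.

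Levels of the classical chain genes were lower in Plcg1-/-Plcg2-/- cells of both populations without passing the threshold on the adjusted p. H2-Eb1 had 76.4, 94.997 and 129 CPM in Plcg1+/+Plcg2+/+ B cell progenitors and 54.1, 11.8 and 43.9 CPM in Plcg1-/-Plcg2-/- ones. The lowest of these 6 values was that of Plcg1-/-Plcg2-/- mouse 2. In CLPs it had 69.0, 105 and 160 CPM against 52.0, 25.2 and 24.4 CPM. The groups were apart in both populations, with log2 fold changes of -1.495 (SE 0.44, adjusted p = 0.180) in B cell progenitors and -1.72 (SE 0.41, adjusted p = 0.220) in CLPs from edgeR's test.

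H2-Ab1 levels in B cell progenitors were 160, 214 and 236 CPM in Plcg1+/+Plcg2+/+ mice and 120, 95.6 and 120 CPM in Plcg1-/-Plcg2-/- mice, groups that did not overlap. The log2 fold change was -0.87 (SE 0.19, 95% interval -1.28 to -0.45, adjusted p = 0.0598 from edgeR's test), just outside the threshold. CLP levels were 98.7, 249 and 271 CPM against 117, 95.4 and 104 CPM, and the lowest control lay among the Plcg1-/-Plcg2-/- values (log2 fold change -0.98, SE 0.38, adjusted p = 0.583).

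H2-Aa had 125, 128 and 182 CPM in Plcg1+/+Plcg2+/+ B cell progenitors against 97.0, 23.2 and 73.9 CPM in Plcg1-/-Plcg2-/- ones, with no overlap. In CLPs it had 80.2, 148 and 221 CPM against 85.0, 30.3 and 36.5 CPM, where 1 control lay below the highest Plcg1-/-Plcg2-/- value. The log2 fold changes were -1.19 (SE 0.41, adjusted p = 0.252) and -1.57 (SE 0.51, adjusted p = 0.438) from edgeR's test.

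Cd74, the chaperone of these chains, had 286, 385 and 514 CPM in Plcg1+/+Plcg2+/+ B cell progenitors and 267, 79.3 and 237 CPM in Plcg1-/-Plcg2-/- ones, a narrow separation between groups. In CLPs the values were 221, 498 and 661 CPM against 311, 107 and 150 CPM, and the groups overlapped. Its log2 fold changes were -1.03 (SE 0.40, adjusted p = 0.324) and -1.28 (SE 0.49, adjusted p = 0.564) from edgeR's test.

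The peptide loading genes were not of one kind. H2-DMb2, a beta chain of H2-DM, had 10.4, 10.9 and 16.97 CPM in Plcg1+/+Plcg2+/+ B cell progenitors against 7.86, 2.83 and 5.43 CPM in Plcg1-/-Plcg2-/- ones. In CLPs it had 12.2, 15.8 and 21.1 CPM against 8.34, 4.91 and 5.53 CPM. Both sets of groups were apart, with log2 fold changes of -1.35 (SE 0.49, adjusted p = 0.293) and -1.39 (SE 0.41, adjusted p = 0.389) from edgeR's test.

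H2-DMb1, the neighbouring copy, overlapped between genotypes in both populations, with log2 fold changes of 0.21 (95% interval -0.64 to 1.07) in B cell progenitors and 0.05 (-0.76 to 0.86) in CLPs. H2-DMa, the alpha chain that pairs with either product, had log2 fold changes of 0.57 (-0.25 to 1.40) and -0.07 (-0.82 to 0.69). The values of H2-Ob were 0.12 (-0.44 to 0.68) and -0.23 (-0.94 to 0.47). These 95% intervals leave room for changes of either sign.

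H2-Oa, the alpha chain of H2-O, had the opposite sign in B cell progenitors. Its levels were 14.2, 11.6 and 14.8 CPM in Plcg1+/+Plcg2+/+ mice and 21.95, 26.1 and 26.7 CPM in Plcg1-/-Plcg2-/- mice. For 1.8% of genes all 3 Plcg1-/-Plcg2-/- libraries lay above all 9 of the other genotypes, and H2-Oa was not among them. The log2 fold change was 0.88 (SE 0.24, 95% interval 0.37 to 1.39), with an unadjusted p of 0.00282 and an adjusted p of 0.137 from edgeR's test, and the gene was not called. In CLPs the groups overlapped (11.4 to 22.1 CPM against 13.9 to 33.3 CPM). BC051537, which overlaps H2-Oa on the other strand, had 3.33 to 6.18 CPM in Plcg1+/+Plcg2+/+ B cell progenitors and 5.90 to 9.09 CPM in Plcg1-/-Plcg2-/- ones.

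**Figure D2:**
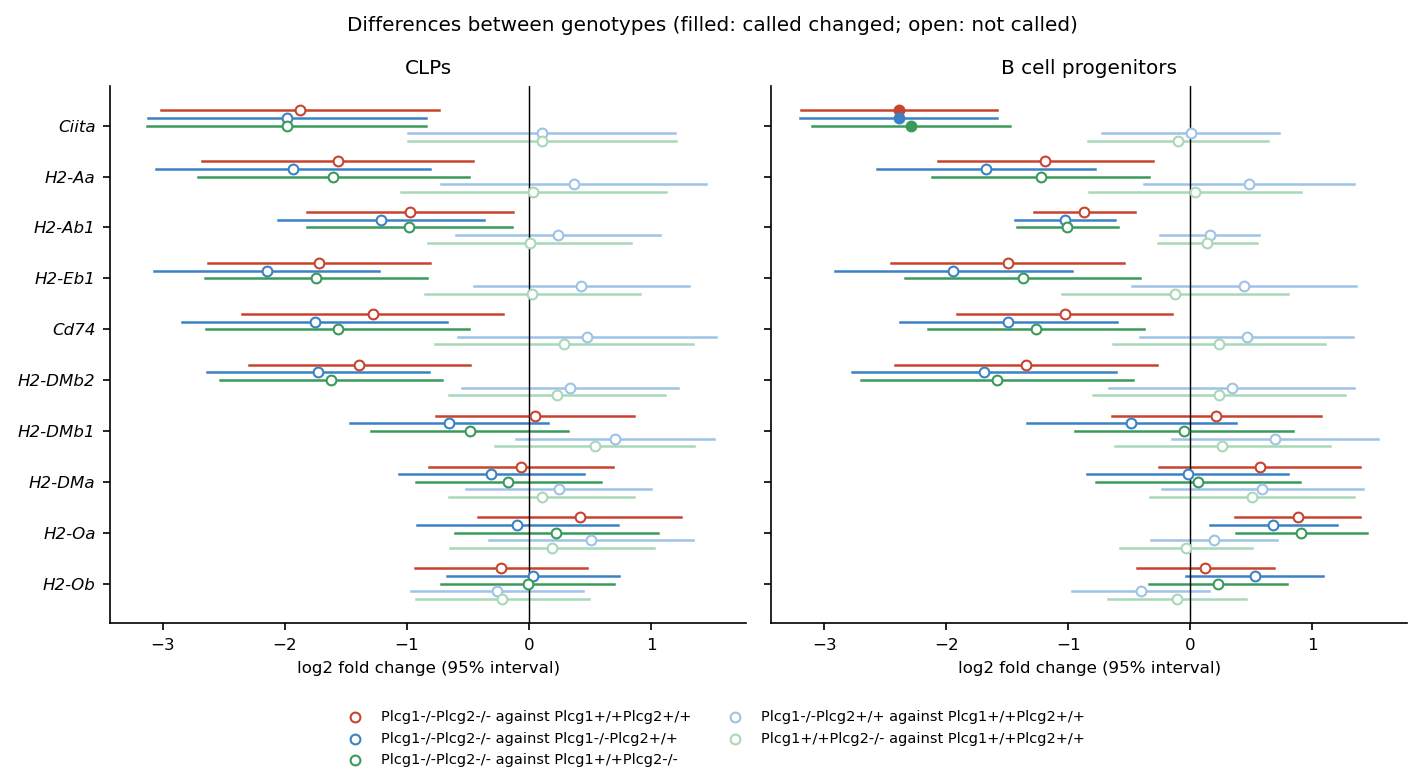
Log2 fold changes of the 10 genes with 95% intervals in CLPs (left) and B cell progenitors (right), for the 5 comparisons named in the key, where filled points passed the call and open points did not. The 3 filled points are those of Ciita in B cell progenitors, and the 2 comparisons of a partly deficient genotype with Plcg1+/+Plcg2+/+ lie between -0.41 and 0.71, most of them above 0.

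By count, 6 members, Ciita, H2-Aa, H2-Ab1, H2-Eb1, Cd74 and H2-DMb2, were lower with an unadjusted p up to 0.05 in Plcg1-/-Plcg2-/- cells of both populations, as were 2% of the 14173 genes tested in both. In B cell progenitors alone, where the same 6 were lower at that level, the share was 6.56%. In B cell progenitors all 3 Plcg1-/-Plcg2-/- libraries lay below all 9 libraries of the other genotypes for these 6 genes, a pattern held by 1.63% of genes. In CLPs this was so for 3 members, H2-Eb1, H2-DMb2 and Ciita, and for 0.986% of genes. Against the Plcg1+/+Plcg2+/+ libraries alone the groups were apart and lower for 6 members in B cell progenitors (10.1% of genes) and for 3 in CLPs (7.32% of genes). Over the 10 members the median log2 fold change was -0.95 in B cell progenitors and -1.13 in CLPs, and over all genes tested it was -0.02 and -0.03.

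Relative to Plcg1-/-Plcg2+/+, the comparison between libraries alike in sex-linked transcripts, the differences were as large. In B cell progenitors the log2 fold changes of H2-Aa, H2-Ab1, H2-Eb1, Cd74 and H2-DMb2 were -1.67, -1.03, -1.94, -1.49 and -1.69. The adjusted p was 0.0638 for H2-Ab1 and between 0.142 and 0.167 for the others from edgeR's test. The 3 Plcg1-/-Plcg2-/- libraries lay below all 3 Plcg1-/-Plcg2+/+ libraries for these 5 genes and Ciita in both populations, as they did for 10.4% of all genes in B cell progenitors and 4.69% in CLPs. These 6 members were also lower with an unadjusted p up to 0.05 in B cell progenitors, as were 12.5% of all genes. Against Plcg1+/+Plcg2-/- the same 6 were lower at that level, as were 7.47% of all genes. H2-Oa had the other sign in B cell progenitors, with an unadjusted p up to 0.05 in both comparisons by edgeR's test. Its log2 fold changes were 0.68 (unadjusted p = 0.0138, adjusted p = 0.192) against Plcg1-/-Plcg2+/+ and 0.91 (unadjusted p = 0.0031, adjusted p = 0.311) against Plcg1+/+Plcg2-/-. In CLPs edgeR called no member against Plcg1-/-Plcg2+/+ (0.0263% of genes called) and 6 were lower with an unadjusted p up to 0.05 (1.97% of genes), while DESeq2 called 5. Against Plcg1+/+Plcg2-/- CLPs edgeR also called none (0.0526% of genes called), 6 were again lower with an unadjusted p up to 0.05 (4.02% of genes) and DESeq2 called 3.

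Loss of either phospholipase alone was not accompanied by a detectable difference in any of the 10 genes. No member was called by edgeR or by DESeq2 in Plcg1-/-Plcg2+/+ or Plcg1+/+Plcg2-/- cells of either population, and none had an unadjusted p up to 0.05. For Plcg1-/-Plcg2+/+ the share of all genes called was 0.00658% in CLPs and 0.06% in B cell progenitors, with 2.85% and 9.93% below the unadjusted level. For Plcg1+/+Plcg2-/- these shares were 0% and 0.0467%, with 3.92% and 2.84%. Ciita had log2 fold changes of 0.00 (95% interval -0.72 to 0.73) in Plcg1-/-Plcg2+/+ and -0.10 (-0.83 to 0.64) in Plcg1+/+Plcg2-/- B cell progenitors. These intervals do not reach the fall seen in Plcg1-/-Plcg2-/- ones, but they do not exclude a smaller change. Over the 10 members the log2 fold changes of Plcg1-/-Plcg2+/+ ran from -0.26 to 0.71 in CLPs and from -0.41 to 0.70 in B cell progenitors, and those of Plcg1+/+Plcg2-/- from -0.22 to 0.54 and from -0.12 to 0.51. Above 0 were 9 of 10 members of Plcg1-/-Plcg2+/+ in CLPs (48.1% of all genes) and 9 in B cell progenitors (55.3%), and 9 (51.2%) and 6 (53.7%) of Plcg1+/+Plcg2-/-. The member medians for Plcg1-/-Plcg2+/+ were 0.35 and 0.39, with -0.01 and 0.06 over all genes. The exception in Plcg1-/-Plcg2+/+ B cell progenitors was H2-Ob, with 76.5 to 127.6 CPM against 128.2 to 161 CPM in Plcg1+/+Plcg2+/+ ones. All 3 of its Plcg1-/-Plcg2+/+ libraries lay below all control libraries, as for 11.6% of genes (log2 fold change -0.41, SE 0.26, adjusted p = 0.483).

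Whether the loss of both departed from the sum of the single losses was tested with an interaction contrast. No member passed in edgeR's fit in either population, where 0.0197% of genes were called in CLPs and 0.0267% in B cell progenitors. In B cell progenitors 6 members had a negative interaction with an unadjusted p up to 0.05, with 13.3% of all genes doing so, and Ciita stood at -2.29 (SE 0.50, adjusted p = 0.187). DESeq2 called 2 members there, Ciita and H2-Ab1 (adjusted p = 0.0167 for each). In CLPs 7 members, these 6 and H2-DMb1, had a negative interaction of that kind, with 1.95% of all genes doing so, and DESeq2 called none.

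**Figure D3:**
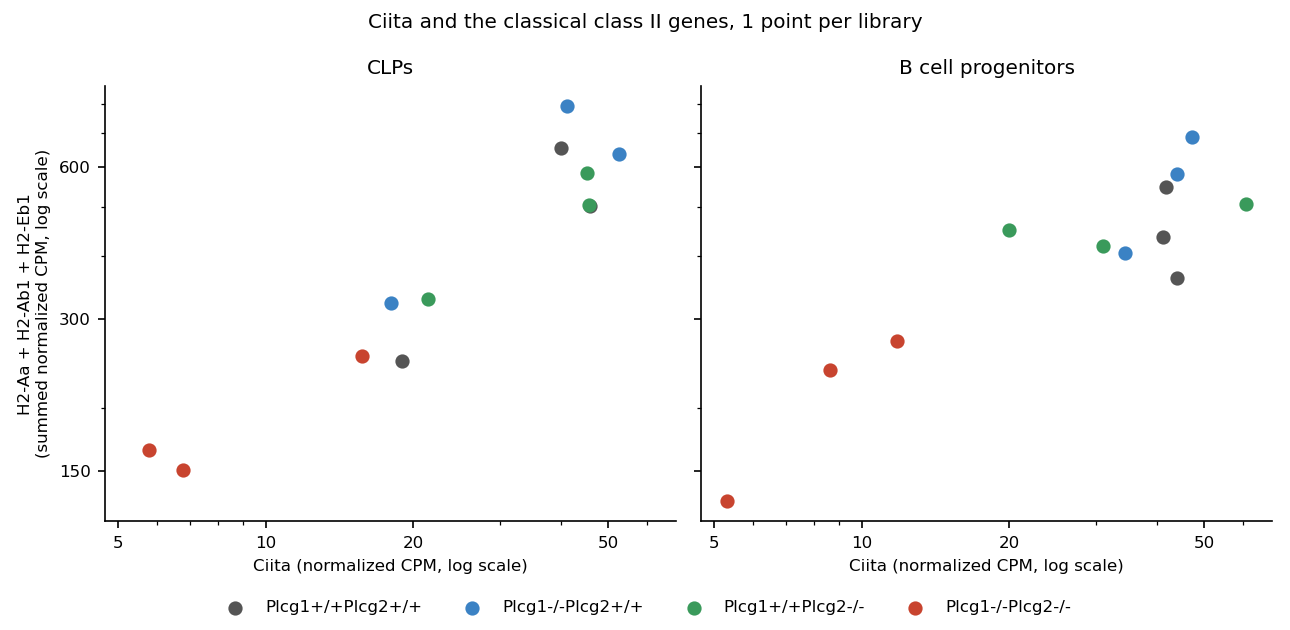
Ciita against the summed level of H2-Aa, H2-Ab1 and H2-Eb1, 1 point per library, in normalized CPM on log scales, for CLPs (left) and B cell progenitors (right). Plcg1-/-Plcg2-/- libraries lie at the lower left, with summed levels of 131 to 271 CPM, and 3 CLP libraries of other genotypes lie near them.

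Mice differed within genotypes, above all in CLPs. In each of the other 3 genotypes 1 CLP library had a low level of Ciita, at 18.9 CPM in Plcg1+/+Plcg2+/+ mouse 1, 18.02 CPM in Plcg1-/-Plcg2+/+ mouse 2 and 21.4 CPM in Plcg1+/+Plcg2-/- mouse 2. The remaining 6 libraries of those genotypes held 39.9 to 52.5 CPM. The summed classical genes were low in the same libraries, with 248, 322 and 329 CPM in the 3 low libraries and 502 to 793 CPM in the 6 others. B cell progenitors of the same 3 mice held 43.9, 34.5 and 60.8 CPM of Ciita, of which 34.5 CPM was the lowest of its genotype. Their summed classical genes came to 361 and 406 CPM, each the lowest of its genotype, and to 506 CPM, the highest of its genotype. Markers of later B cells, the 6 genes Ms4a1, Cr2, Fcer2a, Cd22, Cd40 and Cd86, summed to 86.1, 144 and 123 CPM in the 3 low CLP libraries and to 149 to 431 CPM in the 6 others. The conventional dendritic list summed to 839, 517 and 503 CPM in the 3 libraries against 41.9 to 161.5 CPM in the 6 others, and the CLP list to 3460, 2971 and 2866 CPM against 1114 to 1952 CPM. Flt3 is in both of these lists, and its part in the sums was not separated, so they do not show which cells differed. The part of cells with any of these markers in the class II levels of the 3 libraries was not tested. Without Plcg1+/+Plcg2+/+ mouse 1 the log2 fold change of Plcg1-/-Plcg2-/- against Plcg1+/+Plcg2+/+ CLPs was -2.20 for Ciita (adjusted p = 0.139) and -1.99 for H2-Eb1 (adjusted p = 0.0873), and no member was called by edgeR. Without Plcg1-/-Plcg2+/+ mouse 2 Ciita was at -2.32 in Plcg1-/-Plcg2-/- against Plcg1-/-Plcg2+/+ CLPs (adjusted p = 0.469), and without Plcg1+/+Plcg2-/- mouse 2 at -2.26 against Plcg1+/+Plcg2-/- CLPs (adjusted p = 0.556), again with no member called.

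The summed level of the later B cell list was also compared between genotypes. It was 87.6 to 147 CPM in Plcg1-/-Plcg2-/- B cell progenitors, 218 to 285 CPM in Plcg1+/+Plcg2+/+ ones and 131 to 472 CPM in the single-deficient ones. In CLPs it was 100 to 155 CPM in Plcg1-/-Plcg2-/- mice and 86.1 to 311 CPM in Plcg1+/+Plcg2+/+ mice. All 6 genes had reads in all 24 libraries. Of them Cd22, an inhibitory co-receptor of B cells, fell in Plcg1-/-Plcg2-/- B cell progenitors (log2 fold change -1.62, SE 0.24, adjusted p = 0.00747 from edgeR's test). Fcer2a, the low-affinity IgE receptor CD23, was at -2.55 (adjusted p = 0.209) and Cr2, a complement receptor, at -1.53 (adjusted p = 0.172) without being called. The 3 other genes of the list were not called either, with Ms4a1 at -0.39, Cd40 at 0.16 and Cd86 at 0.65. Their part in the class II levels was not tested. The B lineage progenitor list summed to 3152 to 10791 CPM in Plcg1-/-Plcg2-/- B cell progenitors and 4621 to 6285 CPM in Plcg1+/+Plcg2+/+ ones. The CLP list summed to 1200 to 4915 CPM and 1505 to 2215 CPM, and both lists overlapped between these groups. Plcg1-/-Plcg2-/- mouse 2 had the highest sum of both lists and the lowest of the classical genes, 131 CPM. The part of these lists was not tested either.

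Markers of dendritic cells and macrophages, which carry much class II, were also summed. The plasmacytoid dendritic list came to 693 to 762 CPM in Plcg1-/-Plcg2-/- B cell progenitors and 450 to 519 CPM in Plcg1+/+Plcg2+/+ ones, and in CLPs 6 of its 7 genes had a log2 fold change below 0 (median -0.37). The conventional dendritic list summed to 87.0 to 192 CPM and 46.3 to 96.3 CPM in these groups, and the macrophage and monocyte list to 128 to 307 CPM and 75.5 to 221 CPM. In CLPs the sums of the 3 lists overlapped between both genotypes. None of the genes of these lists was called by edgeR in Plcg1-/-Plcg2-/- cells of either population. The neutrophil sum was 2220 to 5104 CPM in Plcg1-/-Plcg2-/- B cell progenitors and 1080 to 3598 CPM in Plcg1+/+Plcg2+/+ ones, and the sum of 7 T and NK genes 64.5 to 142 CPM and 43.8 to 77.1 CPM. The part of these cells in the class II levels was not tested.

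The 10 genes were also compared between CLPs and B cell progenitors of 1 genotype. By edgeR and by DESeq2 no member was called between the populations in any genotype, and none had an unadjusted p up to 0.05. Of 17212 genes 3.5% were called in Plcg1+/+Plcg2+/+, 3.78% in Plcg1-/-Plcg2+/+, 3.21% in Plcg1+/+Plcg2-/- and 3.24% in Plcg1-/-Plcg2-/- mice, and 16.1%, 26.5%, 16.2% and 14.3% had an unadjusted p up to 0.05. In Plcg1+/+Plcg2+/+ mice the log2 fold change of B cell progenitors over CLPs ranged from -0.70 for H2-DMa (95% interval -1.503 to 0.10) to 0.29 for Ciita (-0.65 to 1.22). Within mice, the ratio of B cell progenitors to CLPs had a median of 0.982 for H2-Aa (0.749 to 2.03 over 12 mice), 0.972 for Ciita (0.441 to 2.84) and 0.826 for Cd74 (0.564 to 1.58). The lowest median ratio of the 10 genes was that of H2-DMb1, at 0.653, with lower values in B cell progenitors in 11 of 12 mice. H2-DMa and H2-DMb2 were lower in B cell progenitors in 10 of 12 mice each, with median ratios of 0.902 and 0.787. The share of all genes lower in as many mice is not given here, so these counts cannot be set against it. With the mouse as a block H2-DMb1 was called lower in Plcg1+/+Plcg2-/- B cell progenitors (log2 fold change -0.83, SE 0.18, adjusted p = 0.0241, with 3.32% of genes called), and in the other genotypes its adjusted p was 0.0914 to 0.310. The share of reads on no gene differed between populations for every mouse, as given above, and its part in these values was not tested.

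**Figure D4:**
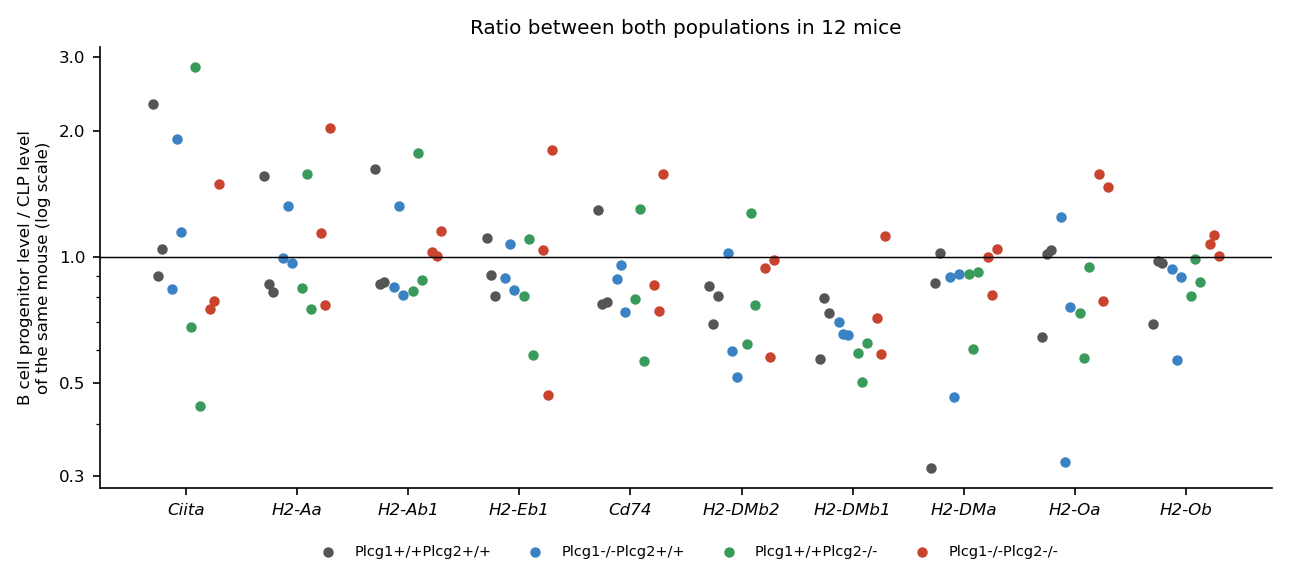
Level in B cell progenitors over that in CLPs of the same mouse for each gene, on a log scale, 1 point per mouse (12 mice), colored by genotype, with a line at a ratio of 1. Points of H2-DMb1 lie below the line in 11 of 12 mice, whereas those of Ciita spread from 0.441 to 2.84.

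The difference between Plcg1-/-Plcg2-/- and Plcg1+/+Plcg2+/+ was also compared between populations. The effect in B cell progenitors minus that in CLPs was -0.50 for Ciita (95% interval -1.87 to 0.87) and between 0.04 and 0.63 for the 9 other genes, all with an adjusted p of 1.00 from edgeR's test. Of 17212 genes 0 were called by this contrast (0%), no member had an unadjusted p up to 0.05 (1.37% of genes did), and DESeq2 called no member. The call of Ciita in B cell progenitors and its absence in CLPs therefore do not show that the populations differ, nor do these wide intervals show that they are alike.

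Of the 9 genes of RFX, NF-Y, CREB and their histone acetyltransferase partners, none was called in Plcg1-/-Plcg2-/- cells of either population by edgeR, and the median log2 fold change was -0.05 in CLPs and -0.21 in B cell progenitors. Nfyb, a subunit of NF-Y, had the lowest value, -0.54 in B cell progenitors (SE 0.21, unadjusted p = 0.0243, adjusted p = 0.319). The values of Crebbp and Nfya there were -0.33 (adjusted p = 0.535) and -0.26 (adjusted p = 0.526). Rfxank, a subunit of RFX, was higher in B cell progenitors than in CLPs in all 4 genotypes, with log2 fold changes of 1.10 to 1.34 by edgeR and 42.04 to 56.9 CPM against 19.3 to 26.5 CPM in Plcg1+/+Plcg2+/+ mice. Most genes called between the populations were higher in B cell progenitors. In Plcg1+/+Plcg2+/+ mice 541 were higher and 61 lower, and in Plcg1-/-Plcg2-/- mice 507 and 50. In Plcg1-/-Plcg2+/+ mice the numbers were 523 and 127, and in Plcg1+/+Plcg2-/- mice 473 and 79.

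Among 13 genes of factors known to act on Ciita, 1 was called. Irf4, a transcription factor of the interferon regulatory family that acts in B cells, fell from 506 to 777 CPM in Plcg1+/+Plcg2+/+ B cell progenitors to 71.8 to 147 CPM in Plcg1-/-Plcg2-/- ones (log2 fold change -2.53, SE 0.47, adjusted p = 0.0271 from edgeR's test). It had 155 to 543 CPM in both partly deficient genotypes, where its log2 fold change was -0.84 each (adjusted p = 0.467 and 0.919). Spib, an Ets factor of B and plasmacytoid dendritic cells, was at -1.18 (adjusted p = 0.0759) and Socs1, an inhibitor of cytokine signalling, at -1.10 (adjusted p = 0.215), neither called. Pax5, a factor that sets B cell identity, was at -0.80 (adjusted p = 0.368). In CLPs none of the 13 was called, 1 was lower with an unadjusted p up to 0.05, and Irf4 was at -1.88 (SE 0.62, adjusted p = 0.448).

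Genes that process antigen and the class I pathway gave no call in either population. Of 11 genes for lysosomal proteases and class II turnover, 10 had a log2 fold change above 0 in Plcg1-/-Plcg2-/- B cell progenitors, with a median of 0.51 and 0 of 11 with an unadjusted p up to 0.05. Ctsh, Ifi30 and Ctsl, which encode a cathepsin, the lysosomal thiol reductase and another cathepsin, were at 0.86, 0.83 and 0.66 (adjusted p = 0.447 to 0.550). Among the 13 class I genes all values were above 0 there, the median was 0.28, and 3 had an unadjusted p up to 0.05. Over all genes tested the median there was -0.02, while the shares above 0 and at that unadjusted p are not given here. Tap2, a subunit of the peptide transporter encoded in the class II region, was at 0.52 (SE 0.15, adjusted p = 0.159), and Psmb8, an immunoproteasome subunit encoded beside it, at 0.37 (adjusted p = 0.337). Of 3 other genes of the class II locus tested in B cell progenitors none was called, with H2-Eb2 at -0.80 (SE 0.35, adjusted p = 0.372) and Brd2, a chromatin reader, at -0.06.

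**Figure D5:**
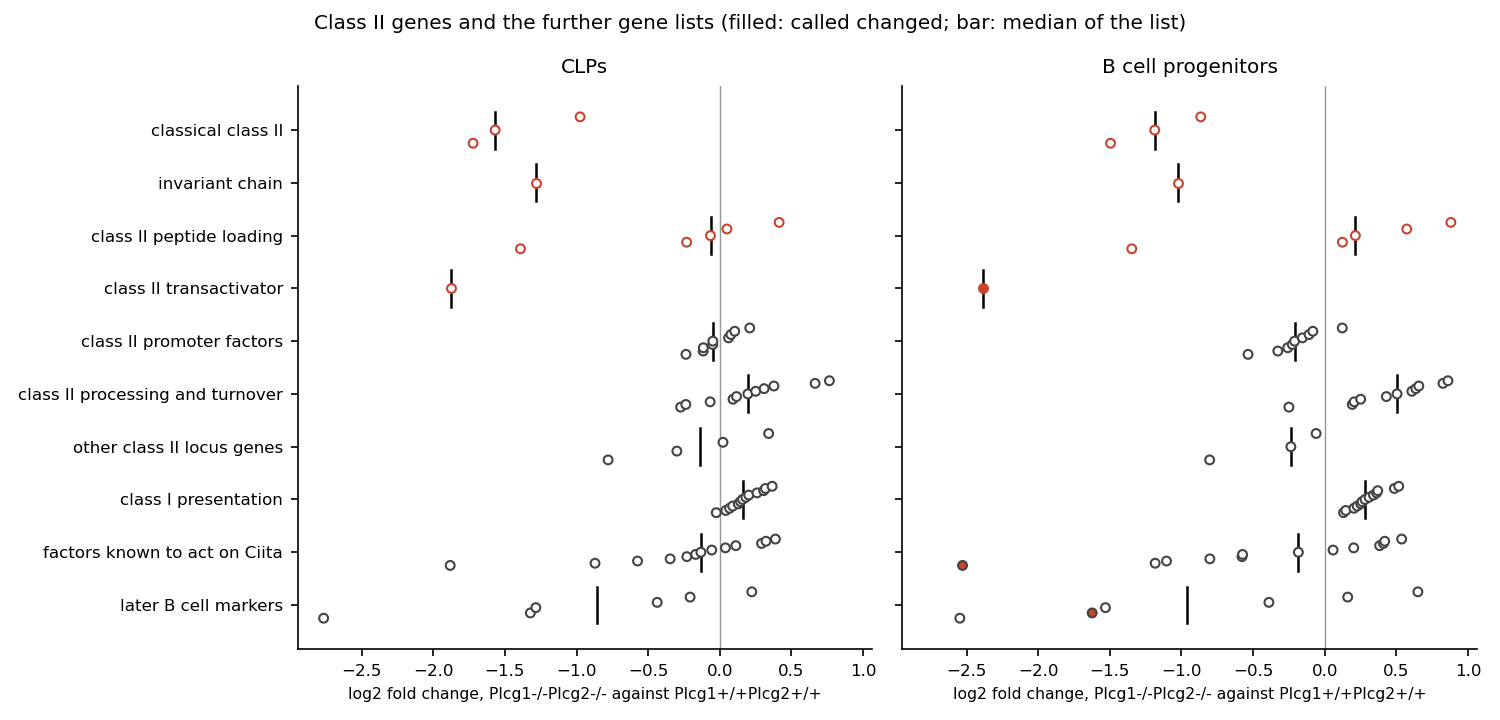
Log2 fold change of Plcg1-/-Plcg2-/- against Plcg1+/+Plcg2+/+ for each gene of the class II lists (red outline) and of the further lists (grey outline) in CLPs (left) and B cell progenitors (right), with a bar at each list's median and filled points for called genes. Ciita, Irf4 and Cd22 are the filled points, all in B cell progenitors, and the class I genes lie between -0.025 and 0.516.

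The genes most like the classical ones were sought by Pearson's r of log2 CPM over the 24 libraries, which are 2 populations of 12 mice and share the low Plcg1-/-Plcg2-/- libraries. Against the mean of H2-Aa, H2-Ab1, H2-Eb1 and Cd74, Ciita reached 0.92, H2-DMb2 0.84 and H2-DMb1 0.55, while H2-DMa was at 0.23 and H2-Oa and H2-Ob at -0.56 each. The 9 other genes with the highest r among 17212 were Slamf9, Rgs16, Fcer2a, Adam19, Cd2, Srpk3, Cd22, Pgap1 and Myzap, with r from 0.851 down to 0.809. The r of Ciita with H2-Aa was 0.91, and the 5 genes most like Ciita were Polm, a DNA polymerase of the joining of antigen receptor genes, Fcrla, an Fc receptor-like protein of B cells, Srpk3, Gpr155 and Adam19, with r from 0.920 to 0.887. In Plcg1-/-Plcg2-/- B cell progenitors Polm was at -2.78 and Fcrla at -3.31 on the log2 scale (adjusted p = 0.00747 for each from edgeR's test). Srpk3 was at -2.32 (adjusted p = 0.0209), Gpr155 at -2.39 (adjusted p = 0.00791) and Adam19, which was not called, at -2.08 (adjusted p = 0.0598).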

How the data were processed

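Poly(A) RNA from 24 sorted samples was sequenced on a NextSeq 500. The authors aligned reads to mm10 with STAR 2.5.0a, per the submitters' processing notes, and deposited raw counts per gene and library. The program that counted is not given in the sources used here. Rows of reads on no gene or on several genes (0.110% to 1.44% ambiguous) stayed out of library sizes and tests. The depth was 1479582 to 33219995 reads on genes and the floor of 3 reads covers counting error only, while 95% intervals of log2 fold changes are from the fit and rest on the spread between mice. No 2 replicates agreed within sampling noise.

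Counts were fitted with edgeR 4.0.16 (filterByExpr with a minimum count of 10, TMM, glmQLFit and glmQLFTest, Benjamini-Hochberg over all genes tested), in 1 fit of 12 libraries per population and 1 fit of 24 libraries between populations. Adjusted p-values are from that test unless DESeq2 1.42.0 is named. Printed levels are CPM from 1 TMM normalization over the 24 libraries, and r used log2 CPM, to which a prior of 2 counts was added. P-values rest on the spread between the 3 mice within groups, as estimated over all libraries of a fit. Fits between populations treated both libraries of a mouse as independent unless a mouse block is named.

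Both populations come from the same mice, and 7 of 12 same-mouse pairs had correlated deviations (r above 0.1, range -0.35 to 0.53). The members and lists were chosen with earlier results of these data known. All members and the targeted genes are named. From each further list come the genes called in some comparison and up to 3 others with the largest change in Plcg1-/-Plcg2-/- cells. Some genes that this rule would name are not reported here. The scripts were tested on simulated counts. Alternatives were RLE size factors, no filter, DESeq2, only the groups compared, a replicate or mouse block, the adjusted p alone, thinning to the smallest library and each library left out.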

Additional observations from a re-analysis of the deposited data

How the results depend on the processing

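The 6 members Ciita, H2-Aa, H2-Ab1, H2-Eb1, Cd74 and H2-DMb2 kept log2 fold changes below 0 in Plcg1-/-Plcg2-/- cells in all 648 values computed over 6 comparisons and the alternatives, between -2.63 and -0.65. These 6 were singled out for being lower in these same data, and each alternative refits the same libraries or a part of them. Their shared sign was therefore largely fixed in advance and is no further support. Calls moved more. In Plcg1-/-Plcg2-/- against Plcg1+/+Plcg2+/+ B cell progenitors 1 member was called, against 4 by DESeq2 and 4 under a replicate block (Ciita, H2-Ab1, H2-Eb1 and, higher, H2-Oa in both), and 0 to 2 when single libraries were left out. Against Plcg1-/-Plcg2+/+ it was 1, with 6 by DESeq2, 4 with the replicate block, 0 with thinned counts and 0 with only the groups compared, and 0 to 1 when libraries were left out. Against Plcg1+/+Plcg2-/- it was 1, with 2 by DESeq2, 2 with the replicate block, 0 with thinned counts, 0 with only the groups compared, and again 0 to 1 when libraries were left out. In CLPs DESeq2 called 2, 5 and 3 members in these comparisons where edgeR called 0, and it called 2 in the non-additive contrast of B cell progenitors where edgeR called 0. The share of all genes called by DESeq2 or with the replicate block is not given here, so these counts cannot be set against it. Between populations the block on the mouse gave 1 call in Plcg1+/+Plcg2-/- mice against 0 without it (H2-DMb1) and changed no other call of a member between populations. Of 380 counts of members under an alternative 345 were unchanged or within 1.5 times and 35 moved, in 8 of 17 results. Most of these results had 0 members called in the main fit, so many unchanged counts were 0 against 0. In B cell progenitors the call of Ciita held in 17 of 19 settings, the main fit included, against Plcg1+/+Plcg2+/+. It held in 9 of 19 against Plcg1-/-Plcg2+/+ and in 9 of 19 against Plcg1+/+Plcg2-/-. No called value changed sign. The cause of these shifts was not tested, except that thinned counts and fits of 2 groups hold fewer reads or libraries. Replicate numbers did not pair the genotypes, as 5 of 18 same-numbered pairs had r above 0.1 (range -0.53 to 0.33).

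Depth limits H2-DMb2, H2-Oa and Ciita most, with 18, 19 and 30 reads in their lowest libraries.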
